A study of Mus musculus with 36 samples.

Results

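Inducible genes of mucosal defense were followed in mouse intestinal organoids cultured with media from senescent fibroblasts or with Wnt5a, with or without an antibody against Ptk7. The 8 genes, of 52636 listed in the counts, were *Dmbt1*, *Pigr*, *Lcn2*, *Saa1*, *Saa3*, *Nos2*, *Duox2* and *Duoxa2*. They were taken by name. *Dmbt1* was chosen by its measured fall in CPM with anti-Ptk7 against IgG, so its values in those conditions are given as a description and were not tested. The other 7 are genes known from the same kind of epithelial response. A gene under 0.5 CPM (the count of a gene scaled to the total of its library) on average over the libraries was taken as not detected. By that rule 5 genes were detected and 3 (*Lcn2*, *Saa1* and *Saa3*) were not. The detected gene nearest to the limit was *Duoxa2* at 3.31 CPM, and the undetected gene nearest to it was *Lcn2* at 0.182 CPM.

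The gut epithelium keeps microbes at a distance by secreting proteins and oxidants into the lumen, and many of the genes involved are switched on by cytokines or microbial products. *Dmbt1* encodes a secreted scavenger-receptor glycoprotein that binds bacteria and mucus. *Pigr* encodes the receptor that carries polymeric IgA across the epithelium, *Lcn2* a lipocalin that binds bacterial siderophores, and *Saa1* and *Saa3* serum amyloid A proteins, which are acute-phase reactants that intestinal epithelium can also make. *Nos2* encodes the inducible nitric oxide synthase. *Duox2* encodes a dual oxidase that releases hydrogen peroxide at the apical surface, and *Duoxa2* encodes the maturation factor it needs to leave the endoplasmic reticulum.

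The organoids were grown from jejunal crypts of C57BL/6 mice, with crypts of 6 mice as the origin of the cultures, and carried no engineered allele. The sources used here tie no age of the mice to these cultures. All 6 conditions contained the same commercial organoid medium and an antibody, and each had 6 libraries. With IgG there were complete media + IgG, quiescent conditioned medium (QCM + IgG), senescent conditioned medium (SCM + IgG) and Wnt5a + IgG, and with the antibody there were SCM + anti-Ptk7 and Wnt5a + anti-Ptk7. The conditioned media came from mouse embryonic fibroblasts made quiescent in low serum or senescent by irradiation or doxorubicin, and the sources used here do not say which of these treatments gave the medium of these libraries. Wnt5a, a secreted protein of noncanonical Wnt signaling, was added to complete media, and Ptk7 is a transmembrane pseudokinase that takes part in that signaling. The antibody in complete media alone was not analysed here, and the IgG libraries of SCM and Wnt5a serve in several of the comparisons. The labels do not say which replicate came from which mouse, so p values measure the spread between these libraries. Library totals ran from 9581589 to 21029769 counts with a median of 13490071.

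Epithelial identity was clear in every condition, since all 7 epithelial markers were detected and summed to between 5888 and 23186 CPM per library. Of 9 leukocyte markers 5 were under 0.5 CPM and *Adgre1* was at 0, while *Csf1r* and *Cd14* were between 11.9 and 18.2 CPM as condition means. Of 8 fibroblast markers 7 were under 0.5 CPM and *Col3a1*, *Dcn* and *Thy1* were at 0 in all libraries. The fibroblast sum was between 0 and 2.7 CPM in SCM + IgG and between 2.26 and 7.36 CPM in SCM + anti-Ptk7. In Wnt5a the ranges were 0.21 to 3.09 CPM with IgG and 1.98 to 4.73 CPM with anti-Ptk7. The one detected fibroblast marker, *Pdgfrb*, was 1.1 CPM in SCM + IgG and 4.1 CPM in SCM + anti-Ptk7 (adjusted p = 0.0927). The part of these sums in the results on the antibody was not tested. *Ptk7* itself rose with Wnt5a (20.2 against 11.7 CPM, log2 fold change 0.79 ± 0.253 (SE, n = 6), adjusted p = 0.0216), a call lost in 2 of 36 fits that each left out 1 library, and with the antibody it was 10.3 against 13 CPM in SCM (adjusted p = 0.538) and 19.5 against 20.2 CPM in Wnt5a (adjusted p = 0.962). In RNA from whole organoids, fewer cells of a type and less RNA per cell cannot be told apart.

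*Duox2* and *Duoxa2* are neighbors on chromosome 2 in head-to-head orientation, and their start regions are shown because these genes were the members that rose in a tested comparison. In the GENCODE annotation of GRCm38, *Duox2* (ENSMUSG00000068452) lies on the minus strand at chr2:122279247-122298449 and *Duoxa2* (ENSMUSG00000027225) on the plus strand at chr2:122298900-122302885, so that the gene starts are 451 bp apart. The RefSeq starts are 673 bp apart, since RefSeq places the start of *Duox2* further inside the GENCODE gene. The windows below run from 250 bases before to 50 bases after the RefSeq start in GRCm38.p6, 5′ to 3′ on the strand of the gene, at chr2:122298178-122298477 for *Duox2* and chr2:122298650-122298949 for *Duoxa2*. Capitals mark a match to the AP-1 motif TGANTCA.
Duox2: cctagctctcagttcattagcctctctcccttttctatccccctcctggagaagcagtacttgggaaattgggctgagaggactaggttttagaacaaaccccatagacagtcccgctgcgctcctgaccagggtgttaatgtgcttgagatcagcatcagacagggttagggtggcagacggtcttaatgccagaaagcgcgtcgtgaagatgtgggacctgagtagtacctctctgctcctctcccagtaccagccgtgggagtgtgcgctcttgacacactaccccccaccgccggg
Duoxa2: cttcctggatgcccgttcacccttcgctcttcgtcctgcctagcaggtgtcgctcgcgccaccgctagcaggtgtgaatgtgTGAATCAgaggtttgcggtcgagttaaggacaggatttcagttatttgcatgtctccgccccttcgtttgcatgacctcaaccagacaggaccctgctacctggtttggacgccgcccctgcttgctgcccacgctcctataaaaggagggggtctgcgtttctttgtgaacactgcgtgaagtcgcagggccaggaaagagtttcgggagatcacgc

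A promoter window was held for 6 of the 8 members (*Dmbt1* and *Nos2* had none). They were searched on both strands for TGANTCA (AP-1), GGAATG (TEAD), TTCNNNGAA (STAT), CAAAGT (HNF4) and a motif of NF-kB. Of 32851 mouse promoter windows of the same 300 bases, 7.81% held the AP-1 letters, 14.7% the TEAD, 8.3% the STAT, 14.4% the HNF4 and 5.56% the NF-kB letters. *Duoxa2* held 1 AP-1 match, beginning 168 bases before its start, and *Pigr* held 1 STAT match, TTCCTGGAA, which did not overlap another motif. The windows of *Duox2*, *Lcn2*, *Saa1* and *Saa3* held none of the 5 motifs. A match describes letters in the window and says nothing of binding.

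*Dmbt1* (chr7:131032053-131121630, plus strand) was present in all 36 libraries. Its mean was 15.3 ± 7.67 CPM (SD, n = 6) in complete media + IgG, 20.8 ± 7.41 in QCM + IgG, 23.4 ± 14.4 in SCM + IgG and 13.5 ± 5.3 in Wnt5a + IgG. With anti-Ptk7 the means were 3.36 ± 2.89 CPM in SCM and 2.96 ± 1.47 CPM in Wnt5a, the lowest of the 6 conditions.

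In SCM + IgG the lowest, median and highest *Dmbt1* values were 6.7, 20.2 and 49.6 CPM, and in SCM + anti-Ptk7 they were 0.292, 2.87 and 8.38 CPM. These groups overlapped through 2 libraries, the lowest of the IgG group and the highest of the antibody group, which both carry number 1. The fitted difference was −2.78 on the log2 scale, or 6.87-fold lower with the antibody. It ran from −3.29 to −2.41 over 36 fits that each left out 1 library, with −3.29 when the SCM + anti-Ptk7 library numbered 1 was left out. Without all 6 libraries numbered 1, a choice made after seeing the data, it was −3.51. In Wnt5a + IgG the corresponding values were 7.71, 12.7 and 22.2 CPM, and in Wnt5a + anti-Ptk7 they were 0.562, 3.19 and 4.83 CPM. Here no library of one group reached the range of the other, and the fitted difference was −2.2 on the log2 scale, or 4.58-fold lower. Because the gene was picked for this fall, no test is attached to either value.

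Among the 4 conditions with IgG, *Dmbt1* varied more between libraries than between media. The highest SCM library had 49.6 CPM and the lowest 6.7 CPM. The 6 complete media libraries ran from 7.98 to 28.2 CPM with a median of 12.1, and the 6 QCM libraries from 14.7 to 32.5 CPM with a median of 17.2. The comparison of QCM with complete media uses no library by which the gene was picked, and it gave a log2 fold change of 0.44 ± 0.43 (95% interval −0.4 to 1.28, adjusted p = 0.754 by edgeR). The IgG means followed the order Wnt5a, complete media, QCM and SCM, and the ranges of neighbors in that order overlapped. The order was not stable. On leaving out 1 library the log2 difference of SCM from QCM ran from −0.2 to 0.37, and that of Wnt5a from complete media from −0.37 to 0.09. The voom fits gave −0.1 (quantile-normalized) and −0.07 (TMM) for SCM against QCM.

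**Figure D1:**
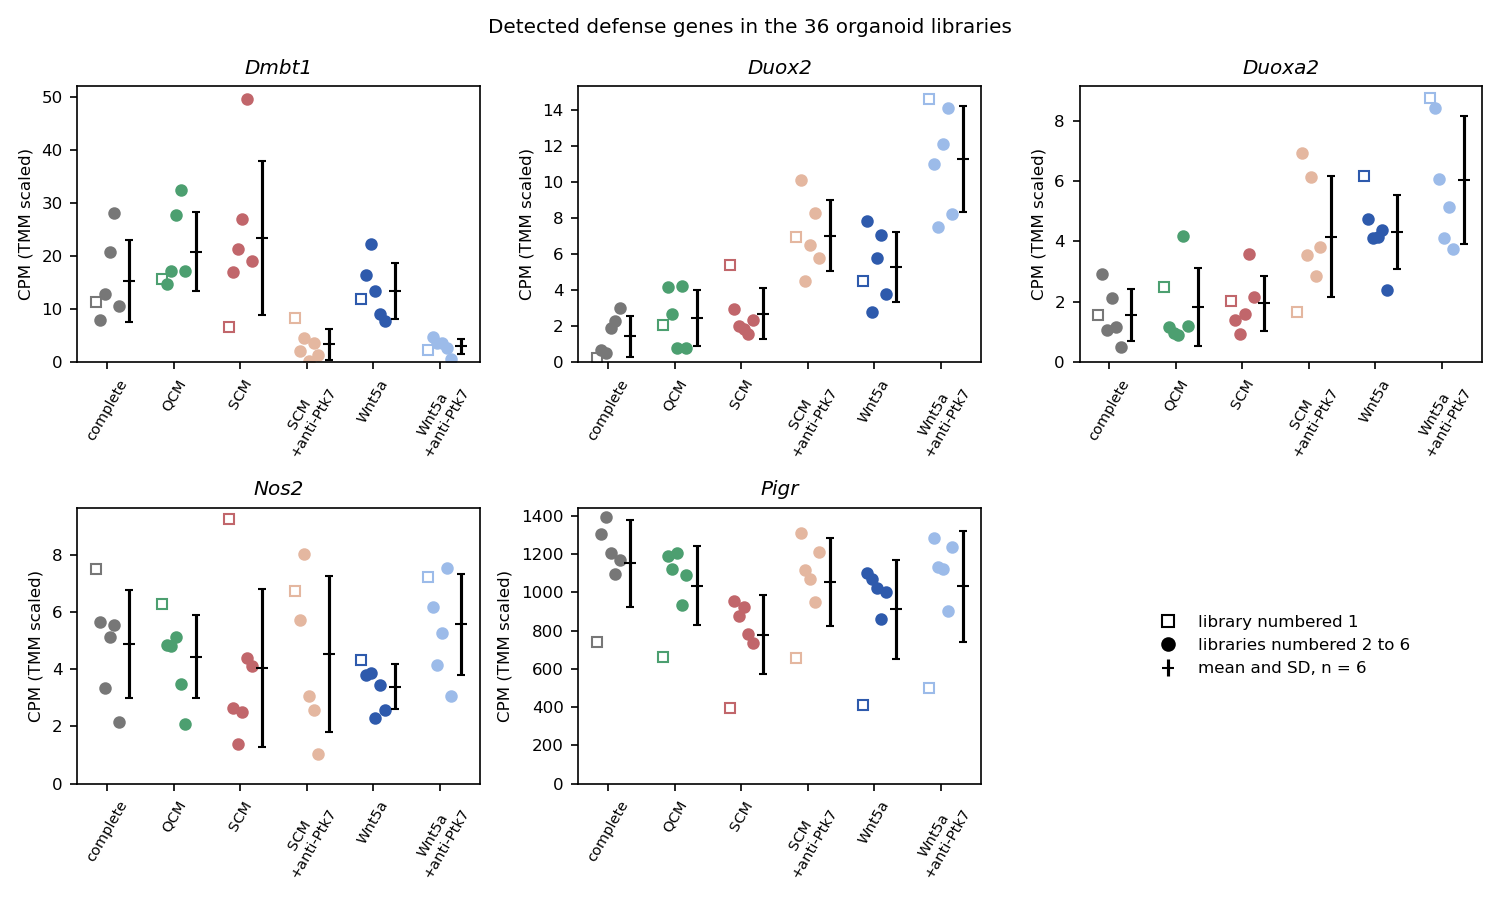
TMM-scaled CPM (y axis, linear from 0) of the 5 detected genes in each of the 36 libraries by condition (x axis), with the mean and SD of 6 libraries as a black bar and the libraries numbered 1 as open squares. *Dmbt1* is lowest in the 2 antibody conditions, *Duox2* is highest in Wnt5a + anti-Ptk7 (7.52 to 14.6 CPM), and the library numbered 1 is the lowest for *Pigr* in all 6 conditions.

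The pattern of *Dmbt1* over the 36 libraries was closest to those of *Ly6c1*, *Anxa13*, *Stip1*, *Nsun2* and *Ces2g*, with Pearson correlations of log2 CPM between 0.75 and 0.77. The libraries share their condition, so these values mostly describe differences between conditions. *Ly6c1*, which encodes a GPI-anchored surface protein, had between 2.51 and 3.22 CPM as means of the 4 IgG conditions, 0.163 ± 0.271 CPM in SCM + anti-Ptk7 and 0.144 ± 0.136 CPM in Wnt5a + anti-Ptk7. *Ly6c1* has close paralogs, and its reads could be split among them. *Anxa13*, encoding an annexin, had 57 ± 5.36 CPM in SCM + IgG and 36.5 ± 6.55 CPM in SCM + anti-Ptk7, and 43.1 ± 4.31 against 30.9 ± 4.74 CPM in Wnt5a. *Ces2g*, encoding a carboxylesterase, had 53 ± 6.41 CPM in Wnt5a + IgG and 32.3 ± 8.93 CPM in Wnt5a + anti-Ptk7, and 52.3 ± 9.68 against 36 ± 7.6 CPM in SCM. With the antibody *Stip1* differed by −0.22 in SCM and −0.3 in Wnt5a on the log2 scale, and *Nsun2* by −0.16 in each. Genes picked for likeness to *Dmbt1* share its fall by that choice. Once the condition means were subtracted, the closest genes were *Prickle3*, *Gm8844*, *Nfxl1*, *Ankrd29* and *Osgin1*, with correlations between 0.65 and 0.67 over the same 36 libraries. The correlation of *Ly6c1* with *Dmbt1* was then 0.08.

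*Duox2* and *Duoxa2* rose with Wnt5a. Over all genes tested, 10.2% were called in Wnt5a against complete media, meaning a fold change over 1.5 with an adjusted p under 0.05, and 8.29% were called higher. Of the 7 members other than *Dmbt1*, 4 could be tested and these 2 were called, both higher. *Duox2* had 0.209, 1.28 and 3.03 CPM as lowest, median and highest values in complete media + IgG, and 2.79, 5.16 and 7.82 CPM in Wnt5a + IgG. A single Wnt5a library lay inside the range of complete media. The log2 fold change was 1.86 ± 0.426 (adjusted p = 0.00164), or 3.62-fold. *Duoxa2* ran from 0.517 to 2.91 CPM in complete media with a median of 1.37 CPM, and from 2.38 to 6.16 CPM with Wnt5a with a median of 4.26 CPM, again with a single Wnt5a library inside the range of complete media. Its log2 fold change was 1.47 ± 0.394 (adjusted p = 0.00626), or 2.77-fold. Both calls held when any single library was left out. Counts were low, between 2 and 41 per library for *Duox2* in complete media, and neither gene could be tested under a filter of at least 10 counts in every library.

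With SCM the pair had lower values than with Wnt5a. *Duox2* was 2.69 ± 1.41 CPM in SCM + IgG (log2 fold change 0.89 ± 0.432 against complete media, 95% interval 0.04 to 1.73, adjusted p = 0.197) and *Duoxa2* was 1.95 ± 0.914 CPM (0.3 ± 0.403, interval −0.49 to 1.09, adjusted p = 0.693). None of the 4 testable members was called in SCM against complete media, where 6.08% of all genes were, although 2 had an unadjusted p under 0.05. DESeq2 and both voom fits also called none. The direct comparison of Wnt5a with SCM called none of the members, against 0.69% of all genes, with 2 at an unadjusted p under 0.05 and none called by voom. DESeq2 gave an adjusted p to 1 of the 4, *Pigr*, and did not call it. The differences there were 0.97 ± 0.403 for *Duox2* (interval 0.18 to 1.76, adjusted p = 0.174) and 1.17 ± 0.386 for *Duoxa2* (interval 0.41 to 1.92, adjusted p = 0.087). Without the SCM + IgG library numbered 5, which has the highest *Duoxa2* of its group, the *Duoxa2* difference was 1.42 and was called (adjusted p = 0.0408).

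QCM called none of the members either, where 0.374% of all genes were called, with none at an unadjusted p under 0.05 and none called by voom, or by DESeq2 among the 3 to which it gave an adjusted p. *Duox2* was 2.44 ± 1.55 CPM and *Duoxa2* was 1.81 ± 1.29 CPM in QCM + IgG. The comparison of SCM with QCM, in which 0.903% of all genes were called, likewise gave no call by edgeR, DESeq2 or voom and no unadjusted p under 0.05 among the members. There *Duox2* differed by 0.16 (interval −0.65 to 0.97) and *Duoxa2* by 0.08 (interval −0.69 to 0.86).

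The antibody conditions had higher means of both oxidase genes, and the edgeR fit of 6 condition means to all libraries, without a block, called neither gene. *Duox2* had 1.59, 2.17 and 5.4 CPM as lowest, median and highest values in SCM + IgG and 4.48, 6.72 and 10.1 CPM in SCM + anti-Ptk7. The groups overlapped only through the IgG library numbered 1, with 5.4 CPM. The log2 fold change was 1.37 ± 0.403 (interval 0.58 to 2.16), and the adjusted p of 0.0562 missed the threshold. Without that library the difference was 1.7 and was called (adjusted p = 0.033). It was also called without the QCM + IgG libraries numbered 4 or 6 or the complete media library numbered 1 (adjusted p between 0.0447 and 0.0498), with a log2 fold change of 1.35 each time. DESeq2 (adjusted p = 0.0227) and voom with limma on quantile-normalized values (adjusted p = 0.0352) and on TMM-scaled values (adjusted p = 0.0274) called it. So did edgeR with only the groups compared (adjusted p = 0.0489) and with a block for the replicate number, as given with the dependence on processing.

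In Wnt5a, *Duox2* had 2.79, 5.16 and 7.82 CPM with IgG and 7.52, 11.5 and 14.6 CPM with anti-Ptk7, so that the groups overlapped only through the highest IgG library and the lowest antibody library. The log2 fold change was 1.08 ± 0.388 (interval 0.32 to 1.84, adjusted p = 0.139), with a call by voom on quantile-normalized values (adjusted p = 0.0413) and on TMM-scaled values (adjusted p = 0.0273) and none by DESeq2 (adjusted p = 0.0883). *Duoxa2* was 4.15 ± 2 CPM with anti-Ptk7 against 1.95 ± 0.914 CPM with IgG in SCM (1.12 ± 0.386, interval 0.36 to 1.87, adjusted p = 0.114). In Wnt5a it was 6.04 ± 2.13 CPM against 4.32 ± 1.22 CPM (0.48 ± 0.369, interval −0.24 to 1.2, adjusted p = 0.599). The edgeR fit therefore called none of the 4 members with anti-Ptk7 in SCM, where 1.23% of all genes were called and 2 members had an unadjusted p under 0.05, and none in Wnt5a, where 0.884% were called and 1 member had such a p.

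The effects of the antibody in SCM and in Wnt5a were compared by the difference of the fitted values. It was −0.29 (interval −1.37 to 0.79) for *Duox2* and −0.63 (interval −1.68 to 0.41) for *Duoxa2*, both at an adjusted p of 0.999. Across all genes 0% were called for this difference, with 602 at an unadjusted p under 0.05, and no member was called by edgeR, DESeq2 or voom or had an unadjusted p under 0.05.

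**Figure D2:**
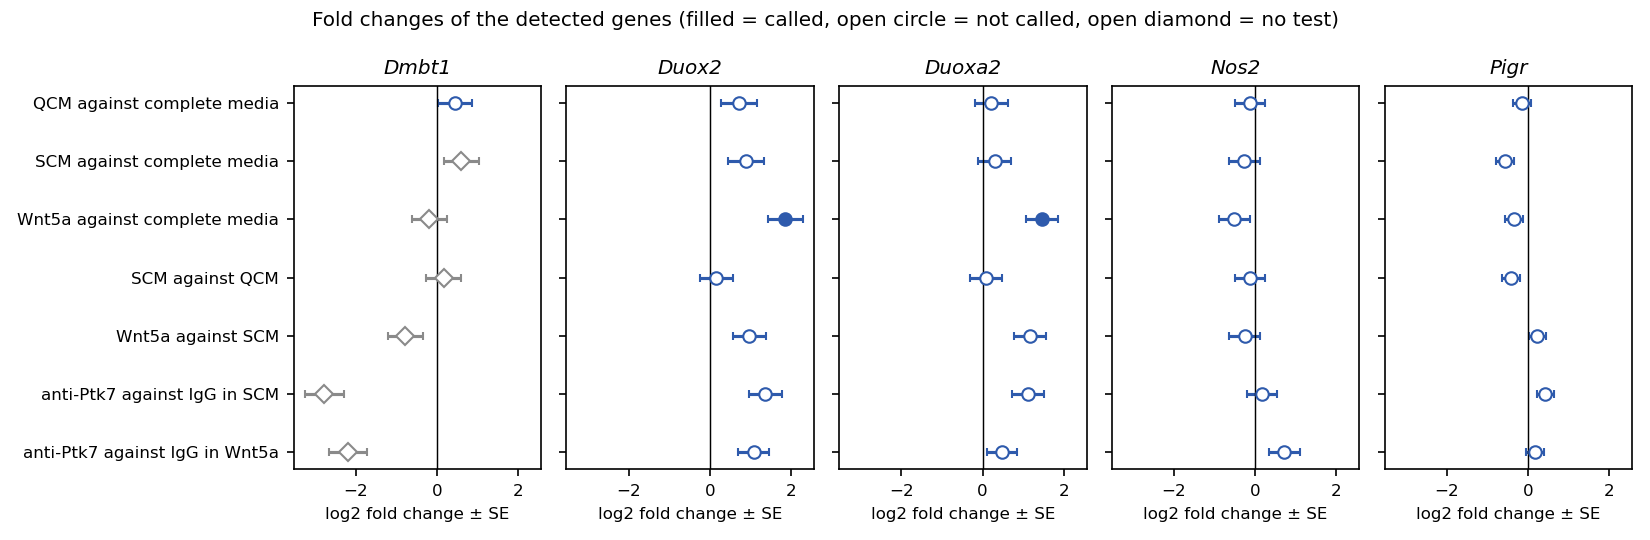
Log2 fold change with its standard error (x axis) of the 5 detected genes in the 7 pairwise comparisons (y axis). Filled circles were called, open circles were not, and open diamonds mark *Dmbt1* in comparisons that were not tested. The filled circles are *Duox2* (1.86) and *Duoxa2* (1.47) in Wnt5a against complete media, and *Dmbt1* lies at −2.78 and −2.2 with anti-Ptk7.

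The pair had the same order of extremes, lowest in complete media + IgG and highest in Wnt5a + anti-Ptk7. For *Duox2* the steps from SCM + IgG to Wnt5a + IgG (2.61 CPM) and from SCM + anti-Ptk7 to Wnt5a + anti-Ptk7 (4.25 CPM) were larger than the SD of either neighbor. For *Duoxa2* only the step from SCM + IgG to SCM + anti-Ptk7 (2.21 CPM) was. Within conditions the genes did not move together, with a Pearson r of 0.06 over 36 libraries after subtraction of the condition means (permutation p = 0.774, adjusted p = 0.82 over 10 pairs) and a Spearman rho of 0.08 (permutation p = 0.666, adjusted p = 0.988). Without the 2 libraries farthest from the median r was 0.24. The ratio of *Duoxa2* to *Duox2* counts, summed over the libraries of a condition, was 0.991 in complete media + IgG, 0.766 in Wnt5a + IgG and 0.522 in Wnt5a + anti-Ptk7, and single libraries of complete media ranged from 0.171 to 7.5. Those libraries held 2 to 41 *Duox2* counts.

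Other genes of NADPH oxidase assembly were read beside the pair. Of 13 listed oxidase and peroxide-handling genes 9 could be tested, and Wnt5a raised 4 (3 without *Duoxa1*) and lowered none, where 8.29% of all genes were called higher and 1.88% lower. *Duoxa1*, the maturation factor of the sister oxidase, rose from 0.241 to 1 CPM (log2 fold change 2.03 ± 0.595, adjusted p = 0.0124). It had 0 to 6 counts per library in complete media, with a mean under 0.5 CPM, and passed the filter through the conditions where it is higher, so its call is not independent of that filter. *Nox1*, the catalytic subunit of a colon-type oxidase, rose from 5.03 to 13.6 CPM (1.43 ± 0.275, adjusted p = 0.000262). *Cyba*, the membrane partner of Nox enzymes, rose from 57.8 to 146.4 CPM (1.34 ± 0.12, adjusted p = 6.7e-10). *Noxa1*, an activator of *Nox1*, rose from 2.98 to 6.81 CPM (1.19 ± 0.402, adjusted p = 0.0299), a call lost in 4 of 36 fits that left out 1 library. *Noxo1*, the organizer of the same enzyme, was 105.8 against 76.8 CPM (0.46, adjusted p = 0.00345), under the fold limit.

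SCM raised 2 of the 9, where 4.96% of all genes were called higher, *Cyba* (154.5 against 57.8 CPM, 1.42 ± 0.12, adjusted p = 2.63e-10) and *Nox1* (8.96 against 5.03 CPM, 0.82 ± 0.275, adjusted p = 0.0448), the latter a call lost in 12 of 36 such fits and in both voom fits. QCM raised *Cyba* alone (0.9 ± 0.119, adjusted p = 2.06e-05), where 0.355% of all genes were called higher. With anti-Ptk7 none of the 9 was called by edgeR, DESeq2 or voom (in Wnt5a DESeq2 gave 8 an adjusted p), with 4 at an unadjusted p under 0.05 in SCM and 2 in Wnt5a. Of all genes 1.23% were called with the antibody in SCM and 0.884% in Wnt5a, so that no call among 9 is near the background. The median log2 fold change of the list with Wnt5a was 0.46, beside 0.01 over all genes tested.

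**Figure D3:**
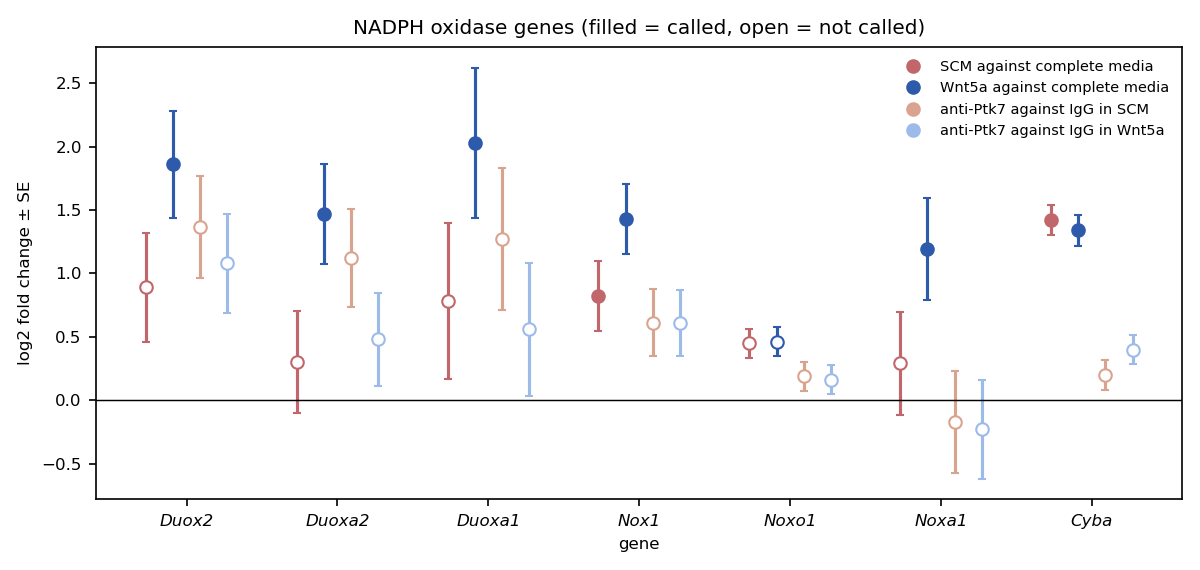
Log2 fold change with its standard error (y axis) of 7 NADPH oxidase genes (x axis) in SCM and in Wnt5a against complete media, and with anti-Ptk7 against IgG in each. Filled points were called. The Wnt5a points are filled for 6 of the 7 genes, from 1.19 for *Noxa1* to 2.03 for *Duoxa1*, which passed the filter on low counts through the conditions where it is higher, and no antibody point is filled.

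*Pigr* (chr1:130826684-130852249) was the most abundant member by far. Counting was restricted to coding sequence according to the methods of the study. Per kb of coding sequence the mean level of *Pigr* was 429.3 CPM, against 3.44 for *Duoxa2*, 2.12 for *Dmbt1*, 1.3 for *Nos2* and 1.08 for *Duox2*. Per kb of all exons the order was the same, with 246.7 CPM for *Pigr*. Its condition means lay between 778.6 ± 204.8 CPM in SCM + IgG and 1151 ± 227.4 CPM in complete media + IgG, and no step in their order was larger than the SD of its neighbors. In complete media + IgG the lowest, median and highest values were 738.7, 1186 and 1393 CPM, and in SCM + IgG they were 396.3, 830.6 and 956.3 CPM. Of the 6 complete media libraries 5 lay above every SCM library, and the ranges overlapped through the remaining one, numbered 1. The log2 fold change was −0.56 ± 0.217 (interval −0.99 to −0.14, adjusted p = 0.086), under the fold limit as well. It was −0.66 and called (adjusted p = 0.0406) without the complete media library numbered 1. The fit with a block for the replicate number also called it, as given with the dependence on processing.

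Wnt5a gave *Pigr* a smaller difference from complete media, −0.34 ± 0.217 (interval −0.76 to 0.09, adjusted p = 0.292), and QCM −0.15 ± 0.216 (interval −0.58 to 0.27, adjusted p = 0.839). With anti-Ptk7 the difference was 0.43 ± 0.217 in SCM (interval 0.01 to 0.86, adjusted p = 0.299) and 0.18 ± 0.216 in Wnt5a (interval −0.25 to 0.6, adjusted p = 0.781). The library numbered 1 had the lowest *Pigr* of its condition in 6 of 6 conditions, between 396.3 and 738.7 CPM.

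*Nos2* (chr11:78920787-78960254) was low and variable in every condition. The means ran from 3.39 ± 0.794 CPM in Wnt5a + IgG to 5.57 ± 1.76 CPM in Wnt5a + anti-Ptk7, and single libraries from 1.02 to 9.24 CPM. No comparison called it and no step in the order of means was larger than the SD of its neighbors. The largest difference was that of the antibody in Wnt5a, 0.72 ± 0.379 (interval −0.03 to 1.46, adjusted p = 0.38), and with Wnt5a against complete media it was −0.52 ± 0.381 (interval −1.27 to 0.23, adjusted p = 0.366). These intervals leave room for changes of more than 2-fold.

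*Nos2* was highest in the library numbered 1 in 4 of 6 conditions and lowest in the library numbered 6 in 4 of 6. After subtraction of the condition means *Pigr* and *Nos2* were inversely related over the 36 libraries, with a Pearson r of −0.48 (permutation p = 0.00288, adjusted p = 0.0288 over 10 pairs of members) and a Spearman rho of −0.43 (permutation p = 0.015, adjusted p = 0.129). Without the 2 libraries farthest from the median r was −0.51, but over the 30 libraries not numbered 1 it was −0.1, so the relation rests on the libraries numbered 1. The permutations shuffled the libraries of each condition separately. The permutation p values are therefore too small if libraries with the same number share an origin. No other of the 10 pairs passed the adjusted threshold.

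**Figure D4:**
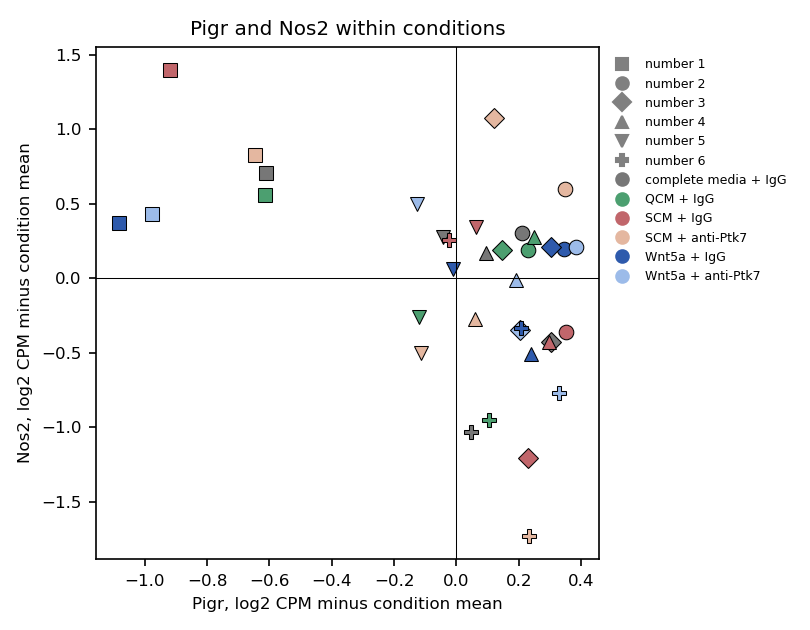
Deviation of *Pigr* (x axis) and of *Nos2* (y axis) from the mean of their condition, in log2 CPM, for the 36 libraries, with the marker giving the replicate number and the color the condition. The 6 squares, numbered 1, stand apart at the upper left, with low *Pigr* and *Nos2* above the mean of its condition.

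Genes that supply or limit nitric oxide synthesis were read beside *Nos2*. Of 10 listed genes 9 could be tested, with 4 higher and none lower in Wnt5a, where 8.29% of all genes were called higher, and 3 higher and none lower in SCM, where 4.96% were. Both voom fits called 2 in Wnt5a, and in SCM they called 2 with TMM and 1 with quantile-normalized values. *Gch1*, the first enzyme in the synthesis of the cofactor tetrahydrobiopterin, rose from 60.3 to 163.4 CPM with Wnt5a (1.44 ± 0.242, adjusted p = 4.94e-05) and to 167.7 CPM with SCM (1.48 ± 0.242, adjusted p = 6.97e-05). *Ddah1*, which breaks down an inhibitor of nitric oxide synthase, rose from 48.4 to 96.9 CPM with Wnt5a (1.0 ± 0.261, adjusted p = 0.00504). *Ddah2* also rose with both, with log2 fold changes of 0.93 and 1.11, calls lost in 5 and in 1 of 36 fits that left out 1 library, as did *Ddah1* with SCM at 0.77, a call lost in 26 of 36 fits that left out 1 library. With the antibody none of the 9 was called by edgeR, DESeq2 or voom (in Wnt5a DESeq2 gave 8 an adjusted p), with 1 at an unadjusted p under 0.05 in each medium, beside 1.23% of all genes called in SCM and 0.884% in Wnt5a.

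*Lcn2*, *Saa1* and *Saa3* were not detected by the rule, and none passed the filter for testing. *Saa1* had no count in any library. Zero of 487231301 counts allows up to 0.00616 CPM over the 36 libraries, and between 0.143 and 0.313 CPM in a single library, for counting error only. *Saa1* and *Saa2* are near-identical copies, and how reads shared between them were treated is not given in the sources used here. *Saa3* had 68 counts in 19 libraries, with at most 13 in a library (1.21 CPM, in SCM + anti-Ptk7), and none in QCM + IgG. *Lcn2* had 94 counts in 17 libraries. It was at 0 in all 6 libraries of SCM + IgG, and reached 20 counts (1.33 CPM) in a library of SCM + anti-Ptk7, where 4 of 6 libraries had counts. In Wnt5a the order was the opposite, with counts in 4 libraries with IgG (at most 13) and in 2 with anti-Ptk7 (at most 3). Complete media + IgG had *Lcn2* counts in 4 libraries and QCM + IgG in 3. With so few counts, and libraries at 0 in every condition, no fold is given.

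Of 8 genes listed beside the lipocalin, amyloid and scavenger-receptor members 6 were under 0.5 CPM and 3 could be tested. The one called was abundant and of none of these families, *Lgals3*, encoding a galectin that binds glycoproteins, which rose from 247.4 to 1374 CPM with Wnt5a (2.47 ± 0.458, adjusted p = 0.000163) and to 1004 CPM with SCM (2.02 ± 0.451, adjusted p = 0.00243). Of all genes 8.29% were called higher with Wnt5a and 4.96% with SCM. Of 20 other inducible effectors 10 were under 0.5 CPM. With Wnt5a 3 of the 10 tested rose and none fell, beside the same 8.29% of all genes. *Lypd8*, which encodes a protein that keeps flagellated bacteria away from the epithelium, rose from 245.9 to 425 CPM (0.79 ± 0.089, adjusted p = 8.03e-08). It also rose to 428.6 CPM with QCM (0.8 ± 0.089) and to 527.6 CPM with SCM (1.1 ± 0.0894), as the 1 gene of the 10 called in QCM (beside 0.355% of all genes called higher) and 1 of 2 called in SCM (beside 4.96%). *Il18*, an epithelial cytokine, rose from 9.45 to 23.6 CPM (1.32 ± 0.253, adjusted p = 0.000248). *Reg3b*, a lectin that kills bacteria, rose from 3.93 to 6.79 CPM with Wnt5a (adjusted p = 0.0447) and fell to 3.33 CPM with the antibody (−1.02 ± 0.292, adjusted p = 0.0496). These *Reg3b* calls were lost in 13 and 25 of 36 fits that left out 1 library. The *Reg3b* fall was the 1 call among the 10 with the antibody in Wnt5a, beside 0.432% of all genes called lower. *Reg3g*, its close relative, was 17.8 CPM with Wnt5a + IgG and 16.2 CPM with Wnt5a + anti-Ptk7 (adjusted p = 0.871).

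Immunoglobulin transport was represented by *Pigr* and 6 further genes, of which 5 could be tested. *Fcgrt*, the receptor that recycles and carries IgG, was the one called of these 5. Of all genes 0.355% were called higher in QCM, 4.96% in SCM, 8.29% in Wnt5a, 0.761% in SCM against QCM and 0.452% with the antibody in Wnt5a. *Fcgrt* rose from 3.43 CPM in complete media to 9.75 CPM in QCM (1.5 ± 0.194, adjusted p = 1.66e-05), 21.4 CPM in SCM (2.64 ± 0.196, adjusted p = 1.29e-11) and 15.6 CPM in Wnt5a (2.18 ± 0.194, adjusted p = 6.7e-10). It was higher in SCM than in QCM (1.14 ± 0.179, adjusted p = 0.000575), and higher with anti-Ptk7 in Wnt5a (26.5 against 15.6 CPM, 0.76 ± 0.176, adjusted p = 0.0127), a call lost without the Wnt5a + anti-Ptk7 library numbered 5. *Pigr* had lower means in SCM and in Wnt5a than in complete media, as given above, without being called in the fit without a block for the replicate number.

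Receptors for the cytokines and microbial products that induce these genes were read next. Of 18 listed 17 could be tested, and 1 rose with Wnt5a, 2 with SCM and 1 with QCM, where 8.29%, 4.96% and 0.355% of all genes were called higher. The receptor called in QCM was *Ifngr2*, a chain of the interferon gamma receptor (0.59 ± 0.0702), a call lost in 25 of 36 fits that left out 1 library, by DESeq2 and by voom on quantile-normalized values. *Il22ra1*, the epithelial receptor of interleukin 22, was 5.18 CPM in complete media and 9.55 CPM with Wnt5a (0.87 ± 0.323, adjusted p = 0.0484), a call lost in 18 of 36 fits that left out 1 library and in both voom fits. *Ifngr2* also rose with SCM from 155.3 to 242 CPM (0.64 ± 0.0703, adjusted p = 7.22e-08), and *Il10rb* from 59.1 to 90.2 CPM (0.61 ± 0.0759, adjusted p = 9.41e-07), the latter a call lost in 3 such fits. *Tlr4*, the receptor of lipopolysaccharide, had 0 to 10 counts per library in complete media and 4 to 54 with Wnt5a, with means of 0.261 and 1.54 CPM. No p is given at counts this low.

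Of 21 NF-kB and STAT3 factors and feedback genes 20 could be tested, and Wnt5a raised 7 and lowered none, where 8.29% of all genes were called higher and 1.88% lower. *Tnfaip3*, a feedback inhibitor of NF-kB, rose from 11 to 35.7 CPM (1.7 ± 0.22, adjusted p = 8.34e-07). *Bcl3*, a nuclear cofactor of NF-kB, rose from 34.7 to 67.8 CPM (0.96 ± 0.187, adjusted p = 0.000289). *Irf1*, an interferon-responsive factor, rose from 10.6 to 20.5 CPM (0.96 ± 0.187, adjusted p = 0.000312). *Nfkb2*, a subunit of the noncanonical NF-kB pathway, rose from 46 to 83.5 CPM (0.86 ± 0.15, adjusted p = 8.16e-05). SCM raised 3 of the 20, where 4.96% of all genes were called higher, *Irf1* (1.27), *Tnfaip3* (1.11) and *Bcl3* (0.97). QCM raised *Irf1* as well, to 22.3 CPM (1.08 ± 0.187, adjusted p = 0.0015), and SCM against QCM did not call it (0.19, adjusted p = 0.641).

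With anti-Ptk7 in SCM 3 of the same 20 rose and none fell, where 0.581% of all genes were called higher and 0.645% lower. *Ccl20*, a chemokine for cells bearing CCR6, rose from 11.7 to 33.4 CPM (1.51 ± 0.269, adjusted p = 0.00156). *Nfkbiz*, encoding an atypical inhibitor that promotes a set of defense genes, rose from 27.1 to 45.9 CPM (0.76 ± 0.183, adjusted p = 0.0186), and *Nfkbia*, encoding the classical inhibitor, from 129.1 to 207.1 CPM (0.68 ± 0.127, adjusted p = 0.00265). The *Nfkbiz* call was lost in 2 of 36 fits that left out 1 library. In Wnt5a the antibody raised *Ccl20* (13.8 to 27.5 CPM, 1.0 ± 0.265, adjusted p = 0.0323) and *Irf1* (20.5 to 33 CPM, 0.69 ± 0.181, adjusted p = 0.03), calls lost in 8 and in 7 of 36 fits that left out 1 library. SCM lowered *Nfkb1* against QCM (23.2 against 35.3 CPM, −0.61 ± 0.135, adjusted p = 0.0166), a call lost in 4 of 36 fits that left out 1 library.

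Over the 7 lists together, 73 of 96 genes could be tested. Wnt5a raised 28.8% of them, beside 8.29% of all genes called higher, and SCM raised 19.2%, beside 4.96%. Neither lowered any, where 1.88% and 1.12% of all genes were lowered. The Wnt5a share includes *Duoxa1*, which passed the filter through the conditions where it is higher. QCM raised 6.85%, beside 0.355% of all genes higher and 0.0194% lower. SCM raised 1.37% and lowered 1.37% against QCM, beside 0.761% and 0.142%. These were 2 calls by edgeR, where DESeq2 gave 7 and voom 3 with TMM and 4 with quantile-normalized values. Leaving out 1 library gave 1 to 5. Wnt5a against SCM gave no call by edgeR or voom, and none by DESeq2 among the 52 of 73 list genes to which it gave an adjusted p, with 12 list genes at an unadjusted p under 0.05, beside 0.297% of all genes higher and 0.394% lower. With anti-Ptk7 4.11% rose in SCM, beside 0.581% higher and 0.645% lower, and in Wnt5a 4.11% rose and 1.37% fell, beside 0.452% and 0.432%. The 4 calls in Wnt5a fell to 0 without the Wnt5a + anti-Ptk7 library numbered 5. The lists were drawn up with earlier results of these data known, so these shares describe them and were not tested. Of 7 general epithelial markers 4 were called higher in Wnt5a (median log2 fold change 0.68) and 3 in SCM (median 0.44), and their part in these shares was not tested.

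Of 12 stem, Paneth, goblet and enterocyte markers, 4 rose with SCM, 3 with Wnt5a and 2 with QCM, where 4.96%, 8.29% and 0.355% of all genes were called higher, and none fell. With the antibody 1 fell in SCM and 2 in Wnt5a, where 0.645% and 0.432% of all genes were called lower, and none rose. *Alpi*, an enterocyte enzyme, rose from 54.4 CPM in complete media to 98.4 CPM with QCM, 129.8 CPM with SCM and 110 CPM with Wnt5a, and fell with the antibody in SCM (129.8 to 86.5 CPM, −0.59 ± 0.16, adjusted p = 0.0403, a call lost in 19 of 36 fits that left out 1 library) and in Wnt5a (110 to 66.8 CPM, −0.72 ± 0.161, adjusted p = 0.0104). The enterocyte marker *Fabp1* had higher means with the antibody, 675.3 against 517.8 CPM in SCM (0.38 ± 0.151, adjusted p = 0.172) and 471.3 against 390.1 CPM in Wnt5a (0.27 ± 0.151, adjusted p = 0.408). *Lyz1*, a Paneth cell lysozyme, fell in Wnt5a (433.8 to 280.6 CPM, −0.63 ± 0.124, adjusted p = 0.00374, a call lost in 4 such fits). *Krt20*, a keratin of mature epithelium, rose with Wnt5a (176.1 to 842.2 CPM, 2.26 ± 0.395, adjusted p = 8.37e-05) and with SCM (to 631.9 CPM, 1.84 ± 0.39, adjusted p = 0.00146). The summed stem, Paneth, goblet and enterocyte markers ranged from 3982 to 4679 CPM in complete media + IgG and from 2826 to 5192 CPM in Wnt5a + IgG. The part of these changes in the values of the defense genes was not tested.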

How the data were processed

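RNA of 36 organoid libraries was sequenced after Smart-Seq v4 amplification and Nextera XT preparation, which do not mark the strand. The authors aligned reads to the mouse genome (mm10) with GSNAP, per the labels. They deposited counts of each gene as whole numbers, not normalized. The annotation and the handling of reads shared between genes are not given in the sources used here.

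The deposited counts were analysed in R 4.3.3 with edgeR 4.0.16. Genes were kept with filterByExpr, which left 15497 of 52636, and libraries were scaled by TMM. The quasi-likelihood test was fitted in 1 model of 6 condition means. P values were adjusted over the 15497 genes by the Benjamini-Hochberg method. Calls required a fold change over 1.5 and an adjusted p under 0.05. Intervals are 1.96 standard errors on either side, and CPM values are TMM scaled and given as mean ± SD. Standard errors were derived from the F statistic of the test. The intervals are somewhat narrower than the test implies. That of *Pigr* with anti-Ptk7 in SCM excludes 0, while the quasi-likelihood test gave an unadjusted p of 0.0528. Correlations between members were tested with 100000 permutations within conditions. The scripts were tested on simulated data. Names, positions, exon and coding lengths come from GENCODE M21, and promoter windows from RefSeq (GRCm38.p6). No repeated deposit was found, since replicates differed by a chi-square per gene of at least 7.6.

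The members and gene lists were chosen with earlier results of these data known. The genes named are the members, at most 4 called genes of each list in each comparison, genes of the receptor, oxidase and marker lists given as levels, Ptk7, and the 5 genes most correlated with Dmbt1 in 2 ways. *Reg3g* was added after its values were seen. A result on 1 listed gene is not reported here. Alternatives were voom with limma 3.58.1 on quantile-normalized and on TMM-scaled values, DESeq2 1.42.0, other scalings (upper quartile, library size), other filters (none, or 10 counts in each library), a block for the replicate number, a fit of only the groups compared, and each library left out in turn. Leaving out the 6 libraries numbered 1 was chosen after seeing the data. Depth limits the genes of a few CPM, whose counts per library were as low as 2, and floors and intervals of counts cover counting error only.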

Additional observations from a re-analysis of the deposited data

Results flagged for a closer look

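In 3 of 30 groups of 6 libraries (5 detected genes in 6 conditions), the lowest library stood farther from its nearest neighbor, as a share of the range of log2 CPM, than the 95% critical value of Dixon's test for 6 values. Chance flags about 1 in 20 groups. *Pigr* in the SCM + IgG library numbered 1 was 396.3 CPM, with the nearest library at 736.7 CPM (share 0.704 on the log2 scale and 0.608 on the CPM scale). *Pigr* in the Wnt5a + IgG library numbered 1 was 409.7 CPM, with the nearest at 861.1 CPM (share 0.751 on the log2 scale and 0.652 on the CPM scale). *Dmbt1* in the Wnt5a + anti-Ptk7 library numbered 6 was 0.562 CPM, with the nearest at 2.25 CPM (share just past the limit on the log2 scale and 0.396 on the CPM scale). On the CPM scale only the *Pigr* library of Wnt5a + IgG, of these 3, is past the critical value.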

How the results depend on the processing

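The member calls in Wnt5a against complete media (2) stood under all alternatives but the filter of 10 counts in every library, which removes *Duox2* and *Duoxa2* (0 called). The labels number the libraries 1 to 6 in each condition without naming mice. Same-numbered libraries had correlations of their deviations between −0.0442 and 0.45, with a mean of 0.092 against −0.018 for different numbers. The numbers were not taken as pairs because the labels tie none of them to a mouse. Only 34 of 90 pairs were over 0.1, but such a cutoff cannot exclude a shared origin. Moreover, 16 of 36 libraries correlated best with their own number, a hint from the data and not from the design. With the replicate number as a block, 1 member was called in SCM against complete media (*Pigr*, adjusted p = 2.34e-07), 1 in Wnt5a against SCM (*Duoxa2*, adjusted p = 0.0491) and 1 with anti-Ptk7 in SCM (*Duox2*, adjusted p = 0.0286), where no member was called without it, and the defense lists gave 8 in SCM against QCM against 2. Under that block edgeR also gave *Pigr* an adjusted p of 0.000182 in Wnt5a against complete media and 0.000122 in SCM against QCM. With anti-Ptk7 in SCM the *Pigr* value was 0.000133. The log2 fold changes, −0.38, −0.44 and 0.46, were under the fold limit. *Duox2* was also the 1 member called with anti-Ptk7 in SCM by DESeq2, both voom fits and the fit of only the groups compared, and the 1 called in Wnt5a by both voom fits. The lists gave 7 in SCM against QCM by DESeq2 and 4 by voom on quantile-normalized values, 1 in Wnt5a against SCM with only the groups compared, and with anti-Ptk7 in Wnt5a 2 with no filter and 2 with only the groups compared, against 4. The causes were not tested. Of the 72 member counts under these alternatives 62 kept within 1.5 times, and of the 72 list counts 66 did. Of the 5 genes most like *Dmbt1*, 3 were shared when Spearman correlation was used.

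Leaving out libraries gave 0 to 1 member in SCM against complete media, in Wnt5a against SCM and with anti-Ptk7 in SCM. The lists gave 1 to 5 genes in SCM against QCM, 0 to 2 in Wnt5a against SCM and 0 to 4 with anti-Ptk7 in Wnt5a. Without the 6 libraries numbered 1, chosen after seeing the data, 1 member was called with anti-Ptk7 in SCM (*Duox2*, log2 fold change 1.68), and the lists gave 5 in SCM against QCM. Uncalled log2 fold changes near 0 changed sign. For *Nos2* they ran from −0.3 to 0.01 in QCM against complete media, −0.56 to 0.05 in SCM against QCM, −0.44 to 0.2 in Wnt5a against SCM (0.1 without all libraries numbered 1) and −0.08 to 0.62 with anti-Ptk7 in SCM. For *Duox2* they ran from −0.16 to 0.4 in SCM against QCM (−0.21 without all libraries numbered 1). For *Duoxa2* they ran from −0.23 to 0.47 in QCM against complete media and from −0.17 to 0.53 in SCM against QCM. The untested *Dmbt1* differences in SCM against QCM (−0.2 to 0.37) and in Wnt5a against complete media (−0.37 to 0.09) changed sign too.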
